A study of Mus musculus with 18 samples.

Results

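The genes described here are 10 that coat, build, empty or feed lipid droplets, namely Plin2, Plin4, Plin5, Cidea, Cideb, Cidec, G0s2, Pnpla2, Mogat1 and Cd36, read by symbol from a table of 54838 genes, in which all 10 were found and none was listed more than once. The table came from RNA sequencing of 18 C57BL/6 mouse samples in 6 groups of 3. Wild-type (WT) mice and mice lacking the miR-181ab1 cluster in every tissue (global knockout, GKO) were either left untreated, which gave the WT and GKO normal livers, or injected once with 25 mg/kg of the liver carcinogen diethylnitrosamine (DEN) on postnatal day 12, which gave liver tumours and the non-tumour liver of DEN-treated mice. All samples were labelled as 36 weeks of age, and the study's methods describe male littermates. The deletion removes Mir181a-1 and Mir181b-1 from all cells of the mouse, so it is not particular to hepatocytes, and it leaves the other loci that encode mature miR-181a and miR-181b in place. Which tumours and non-tumour livers came from 1 mouse is not in the labels, and p-values measure the spread between these samples.

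Hepatocytes store surplus fatty acids as triglyceride in lipid droplets. Perilipins coat the droplet and control access of lipases, CIDE proteins move lipid between droplets or onto lipoproteins, adipose triglyceride lipase (encoded by Pnpla2) starts the breakdown of the store, and CD36 takes up fatty acids at the cell surface. Several of these genes are known to rise in fatty liver, and many are targets of the PPAR family of nuclear receptors. No lipid was measured in these samples.

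The miR-181a and miR-181b strands from the 5′ arm of the deleted hairpins are shown because a microRNA mostly acts through its seed, bases 2 to 8, on messenger RNAs with a matching stretch in the 3′ untranslated region. They lie on chromosome 1, plus strand (RefSeq, GRCm38.p6), and capitals mark the seed.
miR-181a-5p: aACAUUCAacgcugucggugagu
miR-181b-5p: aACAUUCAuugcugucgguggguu
Both carry the same seed, and its complement in a transcript is TGAATGT. None of the 10 lipid droplet genes had this stretch in the longest annotated 3′ untranslated region (GENCODE vM21), where 17.5% of 11573 expressed genes did. The regions searched ran from 75 bases in Mogat1 to 1660 bases in Cd36, beside a median of 1064 bases over those expressed genes. The absence of these letters says nothing of other kinds of site. The 3′ arm strands of the same hairpins have other seeds and were not searched.

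Promoters (250 bases before and 50 after the start site) were listed for 9 of the 10 genes, 11 promoters in all, as Plin5 and Cidec had 2 each. The counts below are per gene and the shares of all are per promoter. The nuclear receptor half-site AGGTCA was searched on both strands and was present in the promoters of 3 of the 9, Plin2, Plin5 (in both of its promoters) and Cd36, and in 16.3% of all 32851 promoters. The pair AGGTCANAGGTCA was in none of the 9 and in 0.0396% of all, the E-box CACGTG was in 1 of the 9 (Plin2) and in 7.15% of all, and TATAAA on the gene strand was in 1 of the 9 (Cideb) and in 8.32% of all. The pair contains the half-site by construction. A match is only a match of letters. The 4 promoters below belong to the droplet gene with the most reads (Plin2), to the pair that was lowest in tumours (Plin4 and Mogat1), and to the fatty acid transporter whose mean in tumours was below that of non-tumour livers in WT and above it in GKO mice (Cd36). Capitals mark the half-site, and in Plin2 also the E-box, which begins at position -4 from the start site.
Plin2 promoter, chr4:86670010-86670309, minus strand, GRCm38.p6: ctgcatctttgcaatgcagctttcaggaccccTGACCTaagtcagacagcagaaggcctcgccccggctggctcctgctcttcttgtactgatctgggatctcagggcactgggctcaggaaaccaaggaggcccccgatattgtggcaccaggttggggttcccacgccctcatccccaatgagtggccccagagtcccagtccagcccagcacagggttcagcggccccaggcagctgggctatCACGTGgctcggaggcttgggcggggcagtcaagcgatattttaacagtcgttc
Plin4 promoter, chr17:56109733-56110032, minus strand, GRCm38.p6: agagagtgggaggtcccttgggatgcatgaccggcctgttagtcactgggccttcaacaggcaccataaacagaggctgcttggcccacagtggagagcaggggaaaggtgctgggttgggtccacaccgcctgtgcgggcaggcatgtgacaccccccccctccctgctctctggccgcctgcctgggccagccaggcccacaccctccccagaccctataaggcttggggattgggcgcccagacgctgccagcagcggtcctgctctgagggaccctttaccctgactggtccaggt
Cd36 promoter, chr5:17835847-17836146, minus strand, GRCm38.p6: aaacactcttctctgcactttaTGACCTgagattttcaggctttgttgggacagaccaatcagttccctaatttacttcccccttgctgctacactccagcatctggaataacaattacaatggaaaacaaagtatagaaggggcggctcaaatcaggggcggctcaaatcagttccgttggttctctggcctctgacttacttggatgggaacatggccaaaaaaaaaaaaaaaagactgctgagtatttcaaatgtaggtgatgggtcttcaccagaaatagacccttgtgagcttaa
Mogat1 promoter, chr1:78510810-78511109, plus strand, GRCm38.p6: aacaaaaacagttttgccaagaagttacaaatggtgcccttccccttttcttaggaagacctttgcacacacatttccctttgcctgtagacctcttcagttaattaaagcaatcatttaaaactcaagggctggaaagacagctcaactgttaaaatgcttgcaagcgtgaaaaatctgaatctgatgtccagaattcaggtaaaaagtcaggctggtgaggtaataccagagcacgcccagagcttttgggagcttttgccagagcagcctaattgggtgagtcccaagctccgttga
The half-sites began at position -218 in Plin2 and -228 in Cd36, and the promoters of Plin4 and Mogat1 held none of the motifs.

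The values are in TPM, which count the reads of a gene per base of its length and scale each sample to a sum of 1000000, so levels of different genes can be set side by side. The reads on genes, recovered from the TPM, ranged from 11925055 to 20751348 per sample. Hepatocyte markers summed to 131300 to 267200 TPM in all 18 samples, with Apoa2 or Alb the most abundant and none of the 9 markers found at 0. The tumours started at 228000 TPM in WT and 253500 TPM in GKO mice, and the highest other liver was at 203400 TPM. Against non-tumour livers, 2 of these markers were called higher in WT tumours, and 4 higher and 1 lower in GKO tumours. The hairpin rows of Mir181a-1 and Mir181b-1 were at 0 in all 9 WT samples, and the only value above 0 was 1.40 TPM of Mir181a-1 in a GKO tumour, so these rows do not check the genotype.

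WT non-tumour liver 2 and WT tumour 3 stood apart from their groups. The correlation across genes of log2(TPM + 1) was 0.929 and 0.933 between WT non-tumour liver 2 and the other two, which had 0.970 between them. For WT tumour 3 it was 0.919 and 0.921, against 0.982 between WT tumours 1 and 2. The labels do not say whether WT tumours 1 and 2 came from 1 mouse, so a fit without WT tumour 3 may understate the spread between mice. For the main results, values without these libraries are given where they differ. Of the 10 genes, 3 share exonic bases with a gene on the opposite strand, and the sources used here do not say whether strand was used in counting. The overlap was 76.3% of the exonic bases of Cideb, with Nop9 (6.14 to 15.9 TPM over the 18 samples), and without strand in the counting the reads of Cideb and Nop9 could not be told apart there. It was 12.8% for Mogat1, with BC035947 (at most 0.331 TPM), and 0.3% for Plin4, with Hdgfl2.

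The 10 genes covered a wide range of levels. G0s2, which encodes an inhibitor of adipose triglyceride lipase, was at 297 to 1695 TPM, and Plin2, the perilipin of most non-adipose cells, at 207 to 1079 TPM. Pnpla2 ranged from 48.0 to 142 TPM, Cd36 from 16.5 to 149 TPM and Plin5, the perilipin of tissues that burn fat, from 10.8 to 88.6 TPM. Cidec, which drives fusion of droplets, was at 7.70 to 76.9 TPM, and Cideb, which loads lipid onto lipoproteins, at 4.36 to 60.8 TPM. Cidea, another promoter of droplet growth (0 to 21.8 TPM), Plin4, a perilipin best known from adipocytes (0.169 to 21.5 TPM), and Mogat1, an acyltransferase that makes diacylglycerol (0 to 12.9 TPM), were the lowest. Cidea also had the largest spread within groups, with a pooled SD of 1.29 on the log2(TPM + 1) scale, and Pnpla2 the smallest, with 0.38.

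**Figure D1:**
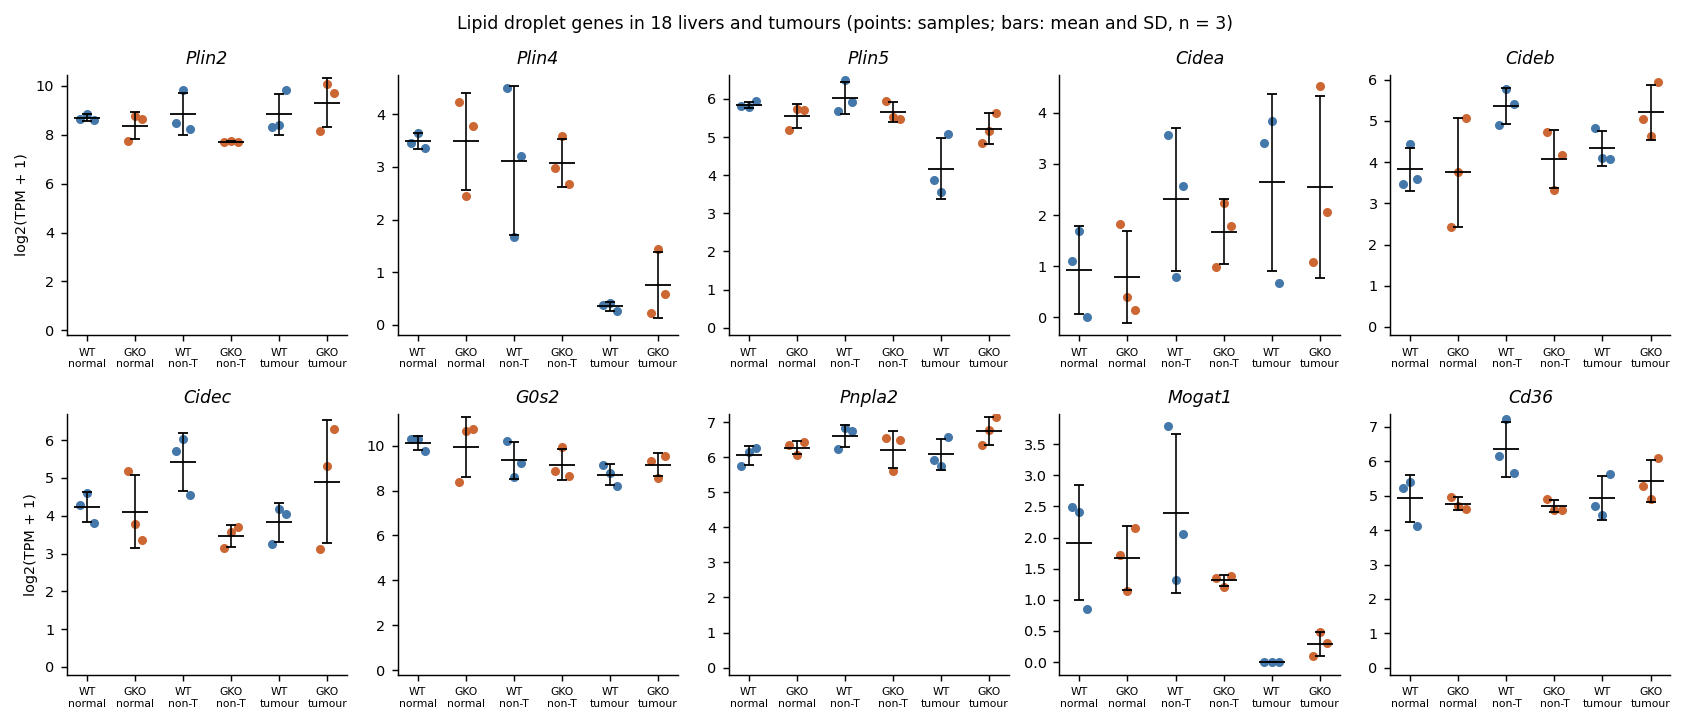
Level of each of the 10 genes on the log2(TPM + 1) scale (y axis) in the 6 groups (x axis; non-T, non-tumour liver of DEN-treated mice), with points for samples (blue, WT; orange, GKO) and bars for the mean and SD of 3. Plin4 and Mogat1 are lower in all 6 tumours than in the other 12 samples, while Cidec and Cd36 have their highest means in the WT non-tumour livers.

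Differences were tested with limma on log2(TPM + 1), over all genes whose level averaged 0.5 TPM or more across the samples compared. A gene was called when its p, adjusted by the Benjamini-Hochberg method over those genes, was under 0.05. Fold changes on this scale understate those of low genes.

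Plin4 lies at chr17:56100591-56109803 (mm10, minus strand), 1797 bases from Plin5, and Mogat1 at chr1:78510991-78538173 (plus strand). Plin4 was at most 1.71 TPM in tumours. Its level was 21.5, 2.16 and 8.21 TPM in the 3 WT non-tumour livers and 0.293, 0.337 and 0.196 TPM in the WT tumours. In GKO mice it was 6.88, 10.96 and 5.37 TPM in the non-tumour livers and 0.169, 1.71 and 0.506 TPM in the tumours. The untreated livers lay at 9.22 to 11.6 TPM in WT and 4.49 to 17.8 TPM in GKO mice, so all 6 tumours were below all 12 other samples. The mean of the GKO non-tumour livers, 7.73 ± 2.89 TPM (SD, n = 3), was 9.71 times that of the GKO tumours, 0.796 ± 0.813 TPM, a difference of -2.32 on the log2 scale (SE 0.37, adjusted p = 0.0127, limma), and Plin4 was called. In GKO mice the ratio was 22.9 without GKO tumour 2. In WT mice the ratio of the means was 38.6, or 18.8 without WT non-tumour liver 1 (difference -2.08, adjusted p = 0.125, limma), and the difference -2.77 (SE 0.65), with an adjusted p of 0.0690 (limma), so it was not called there, although the reads behind the 3 WT tumours were only 10 to 16. Without WT non-tumour liver 2, whose 2.16 TPM was the lowest of its group, the WT difference was -3.50 with an adjusted p of 0.0120 (limma). Over all omissions of 1 sample, the adjusted p in WT mice reached 0.207 (limma). In GKO mice the call held without each of the 6 samples in turn, at an adjusted p of 0.00750 to 0.0490.

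Mogat1 had no read in any WT tumour and 1, 5 and 3 reads in the GKO tumours. It was at 12.9, 1.49 and 3.14 TPM in the WT non-tumour livers, at 1.56, 1.31 and 1.59 TPM in the GKO non-tumour livers, and at 0.799 to 4.63 TPM in the untreated livers of both genotypes. As for Plin4, no tumour reached the lowest of the other 12 samples. Taking 3 reads in each library as the floor (0.229 TPM on average), the mean of the WT non-tumour livers was at least 25.6-fold higher than that of the WT tumours, and the mean of the WT normal livers at least 14.2-fold higher. WT non-tumour liver 1 carried the first of these, which was at least 10.1-fold without it. The 9 reads of the GKO tumours together have an exact Poisson 95% interval of 4.12 to 17.1, for counting error only. Mogat1 was called lower in GKO tumours than in GKO non-tumour livers (-1.02, SE 0.19, adjusted p = 0.0205, limma), and this call was lost without GKO non-tumour liver 2 or 3 or GKO tumour 1 or 3 (adjusted p of 0.0515 to 0.0940) and in a fit of all 18 samples (adjusted p = 0.158, limma). In WT mice the adjusted p was 0.0787 (difference -2.39, SE 0.59, limma), and 0.0365 without WT non-tumour liver 2. Without other single samples it was as high as 0.234 (limma).

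Plin4 is strongly expressed in fat, so the markers of adipocytes were read beside it. Of the 8 markers, Lep and Ucp1 were at 0 in all 18 samples, and Adipoq and Plin1 were at 0 in 13 of 18 each, with highest values of 0.425 and 0.105 TPM. Cfd, which encodes the complement protease adipsin, was the most abundant of the 8 in 12 samples and Trarg1 in the other 6, where the list summed to at most 1.02 TPM. Cfd was at 21.8, 0.266 and 8.16 TPM in the WT non-tumour livers, at 2.08, 8.31 and 7.80 TPM in the GKO non-tumour livers, at 0.787, 0.132 and 0 TPM in the WT tumours and at 0.235, 2.52 and 0.264 TPM in the GKO tumours. Within the WT non-tumour livers, Plin4 and Cfd had the same order of samples, with WT non-tumour liver 2 the lowest for both. The order was also the same in the GKO tumours, with GKO tumour 2 the highest for both. In the GKO non-tumour livers and the WT tumours the order differed. Only Cfd, of the 8, passed the filter. It was not called in either comparison (adjusted p = 0.245 in WT and 0.0715 in GKO mice, limma), and the part of adipocytes in the level of Plin4 was not tested beyond these values. In bulk tissue, fewer cells of a type and less RNA per cell cannot be told apart.

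**Figure D2:**
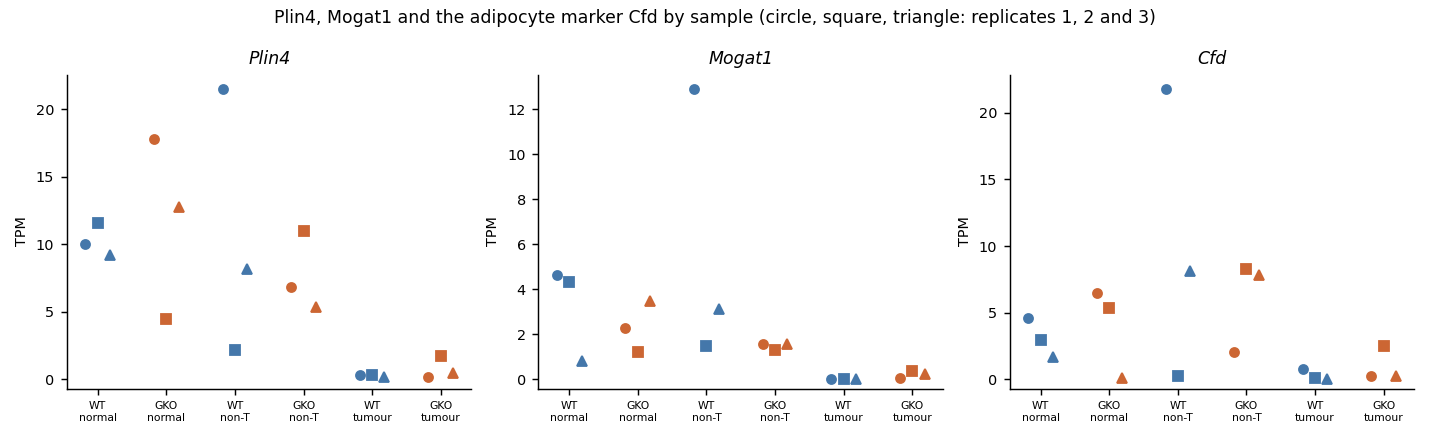
TPM (y axis, linear) of Plin4, Mogat1 and Cfd in each of the 18 samples, by group (x axis); circles, squares and triangles stand for replicates 1, 2 and 3, blue for WT and orange for GKO. All 6 tumours lie at or below 1.71 TPM for Plin4 and 0.392 TPM for Mogat1, while single WT non-tumour livers reach 21.5 and 12.9 TPM.

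In WT mice, 6 of the 10 genes lay lower in every tumour than in every non-tumour liver, where 24.8% of all genes tested had groups that did not overlap. They were Plin4, Plin5, Cideb, Cidec, Mogat1 and Cd36. For Cd36 the separation was all but a tie, since the WT tumours were at 25.2, 20.8 and 49.07 TPM and the lowest WT non-tumour liver at 49.19 TPM. None of the 10 was called, against 4.23% of 14003 genes (302 higher and 290 lower in tumours), and 6 had an unadjusted p under 0.05, where 19.9% of all genes did. The median difference of the 10 was -1.22 on the log2 scale, beside -0.02 over all genes tested. Plin5 was at 50.1, 88.6 and 59.9 TPM in the non-tumour livers and at 13.6, 10.8 and 32.8 TPM in the tumours (-1.86, SE 0.44, adjusted p = 0.0706, limma). Its highest tumour was WT tumour 3, without which the difference was -2.32 with an adjusted p of 0.00985 (limma). Leaving out other single samples gave differences down to -1.56 in size and adjusted p-values up to 0.242 (limma). Cidec had a mean of 45.9 ± 21.2 TPM in the non-tumour livers and 13.8 ± 4.65 TPM in the tumours (SD, n = 3 each), a difference that was not called (-1.60, SE 0.44, adjusted p = 0.111, limma). Plin2, by contrast, had similar means in both tissues, 517 ± 331 TPM in non-tumour livers and 518 ± 331 TPM in tumours, and in each group 1 sample, WT non-tumour liver 2 (897 TPM) and WT tumour 3 (900.3 TPM), held the high value. The Plin2 difference was 0.49 without the first of these samples and -0.48 without the second, and it was called in neither case. G0s2 (-0.64, SE 0.46), Pnpla2 (-0.53, SE 0.31) and Cidea (0.33, SE 0.99) had overlapping groups.

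In GKO mice the direction differed among the genes. Of the 10, 2 were called, Plin4 and Mogat1 as above, beside 11.7% of 14092 genes (1092 higher and 560 lower in tumours, or 777 and 990 after centring each sample on its median, since the median of all genes was 0.20 higher in GKO tumours). For 7 of the 10 the log2 difference was above 0, as it was for 62.7% of all genes, and the median difference was 0.63. Plin2 was at 207, 212 and 208 TPM in the GKO non-tumour livers, the tightest group of the study for this gene, and at 285, 1079 and 835 TPM in the GKO tumours. These groups did not overlap, but the difference of 1.60 (SE 0.48) was not called (adjusted p = 0.0689, limma), and it passed the threshold without GKO tumour 1 (2.18, adjusted p = 0.0114, limma). Leaving out other single samples gave adjusted p-values of Plin2 up to 0.191 (limma). Cd36 was at 28.7, 23.0 and 23.3 TPM in the non-tumour livers and at 37.8, 29.2 and 67.1 TPM in the tumours, without overlap by a narrow margin (0.73, SE 0.32, adjusted p = 0.168, limma). Groups without overlap were found for 4 of the 10, against 38.3% of all genes. Cidec in the GKO tumours ran from 7.70 to 38.7 and 76.9 TPM, a spread that spanned the non-tumour values of 7.84 to 12.0 TPM (1.43, SE 0.72, adjusted p = 0.213, limma, and 2.32 with an adjusted p of 0.0189 without GKO tumour 1, the lowest). Without other single samples its difference was as low as 0.74 and its adjusted p as high as 0.475 (limma).

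**Figure D3:**
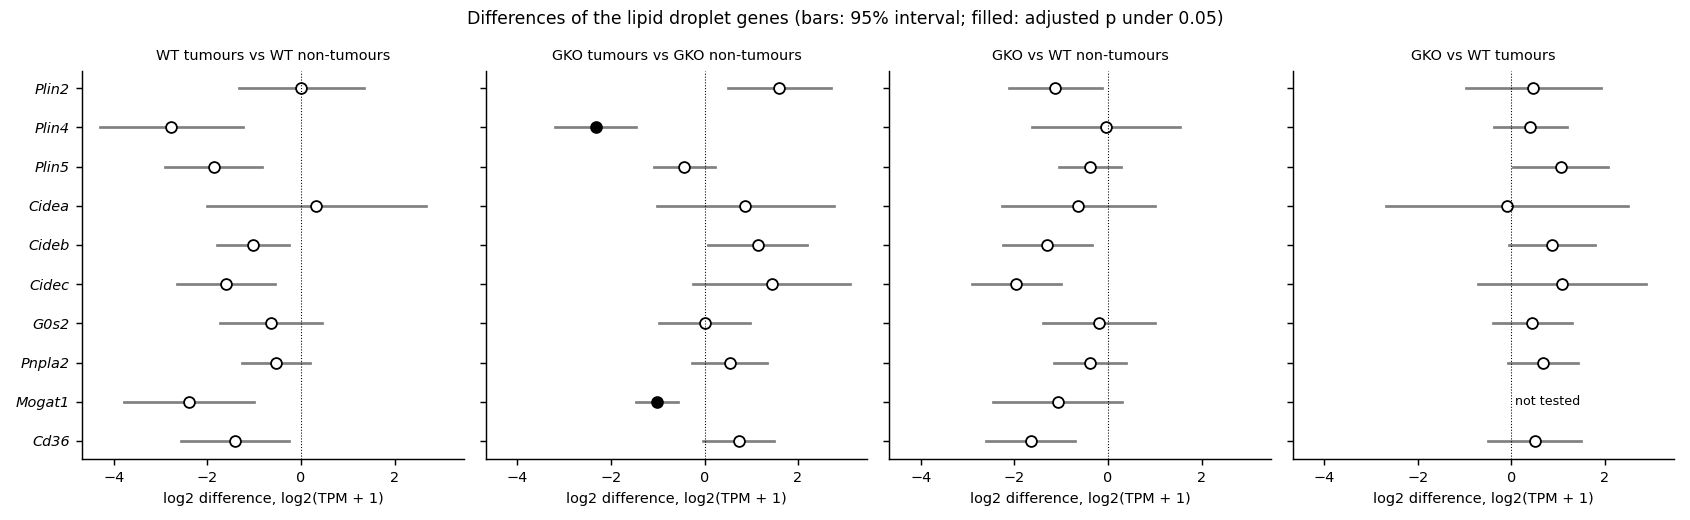
Difference of each of the 10 genes on the log2(TPM + 1) scale (x axis) in 4 comparisons, the first group named minus the second, with bars for the 95% interval of limma's estimate; filled points mark an adjusted p under 0.05. Plin4 and Mogat1 in GKO mice, at -2.32 and -1.02, are the filled points, and in the GKO against WT non-tumour livers all 10 points lie below 0.

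The DEN-treated non-tumour livers differed by genotype in the same direction for all 10 genes, which were lower in GKO than in WT mice, as 66.5% of all genes were, with a median of -0.85 beside -0.15 over all genes. None was called, and no gene of the 13768 tested was (0%; 799 had an unadjusted p under 0.05 with limma, and 0 were called with voom), so these are values and not calls. For 4 of the 10 the groups did not overlap, where 13.2% of all genes showed this. Cidec was at 51.3, 63.9 and 22.6 TPM in the WT and at 7.84, 10.9 and 12.0 TPM in the GKO non-tumour livers (-1.96, SE 0.40, unadjusted p = 0.00176, adjusted p = 0.643, limma). Cd36 was at 71.0, 149 and 49.2 TPM in the WT livers, each above the highest GKO liver at 28.7 TPM (-1.66, SE 0.40, adjusted p = 0.643, limma). Cideb was at 29.1 to 54.2 TPM in WT and 9.01 to 25.4 TPM in GKO mice (-1.30, SE 0.40), with the overlap with Nop9 given above. Plin2 was at 299 TPM or more in all WT non-tumour livers and at 212 TPM or less in the GKO ones (-1.12, SE 0.42). Without WT non-tumour liver 2, which was highest for all 4, the differences were -1.66 for Cidec, -1.22 for Cd36, -1.09 for Cideb and -0.64 for Plin2. Leaving out the highest sample of the higher group could not make the groups overlap. The remaining 6 genes had overlapping groups and differences between -1.08 (Mogat1) and -0.04 (Plin4, which turned to 0.12 after median centring).

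Each kind of DEN-treated non-tumour liver was also compared with untreated livers of the same genotype. In WT mice, Cideb was at 9.997, 20.6 and 11.1 TPM in the WT normal livers and at 29.1, 54.2 and 41.7 TPM in the WT non-tumour livers (1.54, SE 0.34, adjusted p = 0.115, limma). Cd36 was at 36.5, 41.6 and 16.5 TPM in the WT normal livers, all below the lowest WT non-tumour liver at 49.2 TPM (1.42, SE 0.49, adjusted p = 0.161, limma). These were the 2 of the 10 genes without overlap, where 33.9% of all genes had none, and none of the 10 was called (0.00744% of 13440 genes). Without WT non-tumour liver 2, Cideb was at 1.34, Cd36 at 0.98 and Cidec at 0.91. All genes together were shifted in this comparison, with a median of 0.32, or -0.05 after centring, when Cideb was at 1.17, Cd36 at 1.05 and Cidec at 0.83. In GKO mice the same comparison gave -0.07 for Cd36, 0.33 for Cideb and -0.64 for Cidec, no groups without overlap among the 10 (8.73% of all genes) and no call in the 10 or among all genes (0% of 13530 genes; 703 had an unadjusted p under 0.05 with limma, and 0 were called with voom). G0s2 had its highest means in the untreated livers, 1129 ± 234 TPM in WT and 1221 ± 770 TPM in GKO mice, and was at 727 ± 421 and 616 ± 317 TPM in the non-tumour livers, differences of -0.77 and -0.78 that were within the spread between samples. Whether the change from untreated liver differed between WT and GKO mice was not tested. The comparisons of the WT non-tumour livers with WT tumours, with GKO non-tumour livers and with WT normal livers share those 3 samples.

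Untreated livers of the 2 genotypes were close for these genes. Differences between GKO and WT normal livers ran from -0.33 (Plin2) to 0.22 (Pnpla2), and the 95% intervals were wide, from -1.51 to 1.36 for Cideb and from -1.58 to 1.20 for G0s2, where GKO normal liver 1 was at 332 TPM and the other GKO livers at 1636 and 1695 TPM. Only Plin5 had groups without overlap, at 54.3 to 60.5 TPM in WT and 35.2 to 52.4 TPM in GKO mice, where 7.95% of all genes had none. No gene of 13099 was called (0%; 519 had an unadjusted p under 0.05 with limma, and 0 were called with voom).

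Between the tumours, 8 of the 9 genes tested were higher in GKO than in WT mice, where 60% of all genes were, but none was called, none had groups without overlap (14.7% of all genes did), and 3 of 13964 genes were called (0.0215%). That count was 107 with all 18 samples in 1 fit, and 147 without WT tumour 3, which leaves the closely alike WT tumours 1 and 2. It was 0 with WT tumours 1 and 2 averaged as 1 sample. None of the 10 was called without WT tumour 3 either, when Plin5 was at 1.51 (adjusted p = 0.0816, limma), Pnpla2 at 0.93 and Cideb at 0.74. The median of the 9 was 0.49, beside 0.09 over all genes. Plin5 had the lowest p, with 27.7, 34.9 and 49.0 TPM in GKO tumours against 13.6, 10.8 and 32.8 TPM in WT tumours (1.05, SE 0.43, unadjusted p = 0.0446, adjusted p = 0.548, limma). Pnpla2 was at 80.1, 109 and 142 TPM in GKO and at 59.6, 52.5 and 95.1 TPM in WT tumours (0.68, SE 0.32), and Cideb at 38.9 ± 19.4 against 19.9 ± 6.57 TPM (n = 3 each; 0.87, SE 0.39). Mogat1 was below the filter in this comparison.

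How far the GKO minus WT difference itself differed from non-tumour livers to tumours was then fitted as 1 contrast over the 12 DEN-treated samples. It was above 0 for all 10 genes, as for 67.6% of all genes, with a median of 1.40 beside 0.23 over all genes, both without centring. Centring shifts every gene by the same amount, the 10 included, and brought the median over all genes to 0.01. An unadjusted p under 0.05 was found for 5, where 10.5% of all genes had one, Cidec (3.03, SE 0.94), Cideb (2.17, SE 0.60), Cd36 (2.15, SE 0.62), Plin5 (1.43, SE 0.54) and Pnpla2 (1.06, SE 0.48), and none was called, with adjusted p-values of 0.417 or more (limma; 0.0142% of 14106 genes were called). The WT non-tumour livers enter 1 side of this contrast. Without WT non-tumour liver 2 the values were 2.74 for Cidec, 1.96 for Cideb and 1.71 for Cd36, and without WT tumour 3 they were 3.15, 2.04 and 2.50, when 91 of all genes were called in place of 2. With WT tumours 1 and 2 averaged as 1 sample, 2 of all genes were called.

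Other genes of lipid handling, in lists that hold none of the 10, were called only in the tumour against non-tumour comparisons, where 2.16% of all genes were called higher and 2.07% lower in WT mice, and 7.75% higher and 3.97% lower in GKO mice. Counts as small as those of these lists are read as descriptions beside these shares. Of the 9 list genes called in WT tumours, Ces1d and Fabp5 were called without each of the 6 samples in turn, and the other 7 were not called without WT non-tumour liver 1 or 3 or WT tumour 1 or 2. Of the 13 called in GKO tumours, Acsl3, Acsl4, Acsl5, Fabp5 and Lipc were called without each of the 6 samples, and the other 8 were lost without at least 1. Of 11 other droplet coat and assembly genes tested, 1 was called higher and 1 lower in WT tumours. Hilpda, a hypoxia-induced inhibitor of adipose triglyceride lipase, was at 28.5 against 6.69 TPM (2.02, SE 0.37), and Fitm1, which partitions triglyceride into droplets, was at 9.52 against 257 TPM (-4.54, SE 0.75). The ratio of the Fitm1 means in WT mice, non-tumour over tumour, was 15.7 without WT non-tumour liver 1 and 41.1 without WT tumour 2. Fitm1 had, with Plin4, a large difference in WT mice, and in GKO mice, where it was at 27.3 against 156 TPM, it was not called (-3.94, SE 1.11, adjusted p = 0.0598, limma). GKO tumour 2 held that level, at 76.2 TPM against 1.67 and 4.14 TPM, and without it the mean was 2.91 TPM and the difference -5.40 (adjusted p = 0.00206, limma). Without other single samples the adjusted p of Fitm1 was as high as 0.169 (limma). The 1 droplet gene called in GKO tumours was Hsd17b13, a droplet-bound liver enzyme, at 1498 against 248 TPM (2.56, SE 0.38, adjusted p = 0.0102, limma).

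Among the 16 triglyceride synthesis genes, 1 was called higher and 1 lower in WT tumours, Acsl4, which activates long-chain fatty acids (2.37, SE 0.39), and Gpat4, which acylates glycerol 3-phosphate (-1.28, SE 0.21). In GKO tumours 3 were called higher and none lower, all of them acyl-CoA synthetases. Acsl4 was at 34.0 against 4.75 TPM, Acsl5 at 240 against 40.7 TPM and Acsl3 at 15.8 against 3.28 TPM (2.56, 2.54 and 1.97, SE 0.34, 0.28 and 0.20). Lipolysis genes were called lower in WT tumours for 3 of 10. These were the carboxylesterases Ces1d (13.2 against 366 TPM, -4.79, SE 0.45) and Ces1g (6.30 against 311 TPM, -5.02, SE 0.87), which hydrolyse stored triglyceride, and the phospholipase Ddhd2 (-1.47, SE 0.27). WT non-tumour liver 2 carried much of the level of Ces1g, at 719.5 TPM against 108 and 104 TPM, and without it the mean was 106 TPM and the difference -4.10 (adjusted p = 0.0252, limma). Paralogous carboxylesterases may share reads. In GKO tumours none of the 10 was called lower, and Pnpla3, which encodes a droplet-bound relative of adipose triglyceride lipase, was called higher (7.09 against 0.0275 TPM, 2.53, SE 0.61, adjusted p = 0.0398, limma). Its GKO tumours were at 3.57, 1.66 and 16.1 TPM, and without GKO tumour 3 the mean was 2.61 TPM and the difference 1.76 (adjusted p = 0.0332, limma). The Pnpla3 call was lost without GKO tumour 1 or any 1 of the GKO non-tumour livers (adjusted p of 0.0664 to 0.130, limma).

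Of the 12 genes of fatty acid uptake and binding, Fabp5, an intracellular fatty acid carrier, rose in both genotypes, from 4.08 to 88.4 TPM in WT (4.11, SE 0.42) and from 3.33 to 60.1 TPM in GKO mice (3.75, SE 0.52), where the mean was 39.7 TPM without GKO tumour 2. In WT tumours it was the only one of the 12 called higher, and Slc27a5, a liver fatty acid and bile acid ligase, was the only one called lower (-1.64, SE 0.28). In GKO tumours Fabp4 (2.66, SE 0.39) and Lpl, the lipase that frees fatty acids from lipoproteins (2.27, SE 0.45), were also called higher, and Lipc, the hepatic lipase, lower (-1.88, SE 0.21). Of 7 triglyceride export genes, 2 were called higher in GKO tumours, the apolipoprotein Apoa4 at 3037 against 112 TPM (4.22, SE 0.74) and P4hb, a subunit of the microsomal transfer protein (1.22, SE 0.27), and none in WT tumours. GKO tumour 3 carried the level of Apoa4, at 6685 TPM against 739 and 1686 TPM, and without it the mean was 1213 TPM and the difference 3.36 (adjusted p = 0.0273, limma). Of 11 regulators of fat storage, Srebf1, which activates lipogenic genes, was called higher in GKO tumours (159 against 41.0 TPM; 1.79, SE 0.42) and Mlxipl, the carbohydrate response factor, lower (-1.52, SE 0.33), and none was called in WT tumours. Without GKO tumour 3, at 274 TPM, the mean of Srebf1 was 102 TPM and the difference 1.32 (adjusted p = 0.0516, limma).

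**Figure D4:**
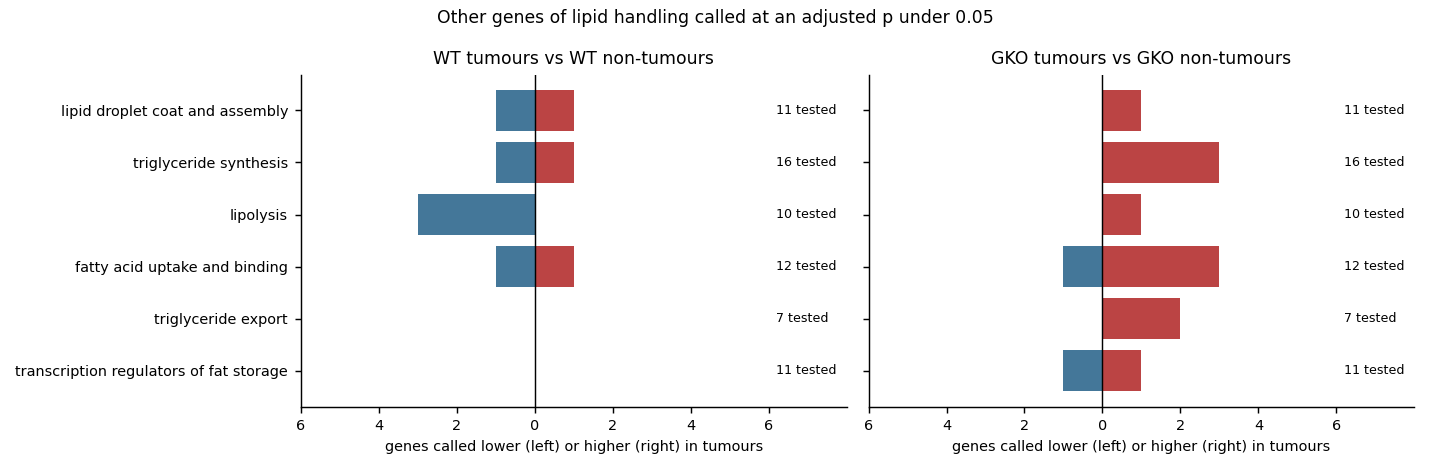
Number of genes of 6 lists (y axis) called lower (bars to the left) or higher (bars to the right) in tumours than in non-tumour livers (x axis), in WT and GKO mice, with the number tested beside each. Lipolysis has 3 genes called lower in WT and 1 called higher in GKO tumours, and triglyceride synthesis has 3 called higher in GKO tumours.

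No gene of these 6 lists was called between the genotypes in any tissue, nor between non-tumour and normal livers. Pparg is the nuclear receptor best known for driving fat storage genes, Cidec and Cd36 among them. On average it was at 12.6 TPM in WT non-tumour livers and 5.40 TPM in GKO non-tumour livers (-1.13, SE 0.38, adjusted p = 0.643, limma). These groups overlapped, with the lowest WT liver at 8.70 TPM and the highest GKO liver at 8.87 TPM. Pparg was at 4.58 TPM in WT and 5.28 TPM in GKO normal livers, and at 3.20 TPM in WT tumours. In GKO tumours Pparg was at 4.73 TPM, where the means of Cidec and Cd36 were 41.1 and 44.7 TPM. The part of Pparg in the levels of Cidec and Cd36 was not tested. The lowest p of the export list between non-tumour livers was that of Apoa4, at 112 TPM in GKO and 405 TPM in WT mice (-1.85, SE 0.36, adjusted p = 0.643, limma). Between tumours, Slc27a1, a fatty acid transporter, was at 5.16 TPM in GKO and 1.42 TPM in WT mice (1.36, SE 0.26, adjusted p = 0.288), and Ces1d at 66.1 against 13.2 TPM (2.28, SE 0.49, adjusted p = 0.345, limma).

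Markers of other liver cells also differed between tissues. The summed level of 10 macrophage markers was 212.8 ± 158.8 TPM in WT non-tumour livers and 53.9 ± 19.2 TPM in WT tumours, with 0 of 9 tested called, and 313 ± 253 and 70.8 ± 49.1 TPM in GKO mice, with 2 of 9 called lower (Marco and Timd4, which mark resident Kupffer cells). Such sums follow their most abundant genes. Of the 9 tested in each genotype, 1 was higher in WT tumours and 3 were higher in GKO tumours than in non-tumour livers. Within the WT non-tumour livers the sum was 213, 54.0 and 372 TPM, lowest in liver 2, which had the highest Plin2, Cidec and Cd36. The same liver had the lowest Plin4 and Mogat1 of its group. Its sum of endothelial markers was also the lowest, at 52.15 TPM against 88.4 and 95.99 TPM. So was its sum of stellate cell markers, at 40.6 TPM in a group that reached 231.7 TPM. Within the GKO tumours the macrophage sum was 35.95, 126.9 and 49.48 TPM, highest in GKO tumour 2, which also had the highest Plin4 and Fitm1. The stellate sum of these tumours was highest there too, at 150.7 TPM. The most abundant macrophage gene was Clec4f in 9 of the 18 samples. Of the 10 macrophage markers only Trem2 and Gpnmb were at 0 in any sample, in 1 each. Stellate cell markers summed to 156 ± 101 TPM in WT non-tumour livers and 47.4 ± 18.2 TPM in WT tumours, with 0 of 8 called, and to 283 ± 55.2 and 103 ± 43.5 TPM in GKO mice, with 3 called lower (Ecm1, Dcn and Hand2) and Pdgfrb called higher. Of 10 endothelial markers, Pecam1 and Cdh5 were called higher in GKO tumours and none in WT tumours. In GKO mice 6 of the 10 were higher in tumours, with a median of 0.14 beside 0.20 over all genes. The means of Clec4g (15.5 against 33.6 TPM) and Stab2 (6.72 against 9.52 TPM) were lower in GKO tumours than in GKO non-tumour livers. Each of these 8 marker calls in GKO mice was lost without at least 1 sample. Between genotypes none of the macrophage, stellate or endothelial markers was called, but their levels differed. In normal livers the stellate sum was 325 ± 111 TPM in GKO and 165 ± 46.9 TPM in WT mice, and the endothelial sum was at 81.2 to 92.8 TPM in GKO and 43.7 to 57.0 TPM in WT mice, without overlap. Between tumours, the stellate marker Colec11 was at 46.1 TPM in GKO and 15.1 TPM in WT mice (1.52, SE 0.28, adjusted p = 0.270, limma), and Pdgfrb at 5.62 and 2.36 TPM (0.98, SE 0.31, adjusted p = 0.467, limma), both without overlap. Cd36 and Lpl are also expressed by macrophages and endothelium, and the part of these cells in the values above was not tested.

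The 10 genes did not vary as a unit from sample to sample. On deviations from the group means over the 18 samples, Pearson's r was highest for Plin2 with Plin5 (0.79), Plin4 with Mogat1 (0.73), Plin5 with Pnpla2 (0.69) and Plin4 with Cidea (0.67), and lowest for Plin5 with Cidea (-0.69) and G0s2 with Pnpla2 (-0.49). These are descriptions over libraries that share depth and RNA quality between genes. By the same measure over 11896 genes that averaged 1 TPM or more, the genes most like Plin2 were Enc1 (0.93), Srd5a1 (0.93) and Shc2 (0.90), those most like Cidec were Nipbl (0.92), Mylk (0.91) and Cntnap1 (0.89), and those most like Cd36 were Gphn (0.94), 4931406C07Rik (0.91) and Pxdc1 (0.91).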

How the data were processed

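RNA from 18 liver samples was sequenced. Per the submitters' processing notes and the study's methods, the authors aligned reads to mm10 with STAR 2.7.3a and counted them with featureCounts 2.0.0. The deposited values are TPM per gene. The annotation, the strand setting and the TPM calculation are not given in the sources used here. TPM multiplied by exonic length (GENCODE vM21) gave whole reads within 0.02 for 97.95 to 98.67% of values of at most 30 reads, over 54809 genes. The 18 samples had 11925055 to 20751348 reads on genes, which leaves genes of few reads imprecise. Depth differed between the groups of 3, from 13808883 to 15858799 in GKO non-tumour livers and from 17427256 to 20751348 in GKO tumours, which did not overlap.

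limma 3.58.1 (R 4.3.3; lmFit and eBayes with a trend) was fitted to log2(TPM + 1) for each comparison on its own samples, keeping genes that averaged 0.5 TPM or more in them, with Benjamini-Hochberg adjustment over all genes, and tested on simulated data. Another pseudocount, no filter, median centring, all 18 samples in 1 fit, no trend, voom on recovered reads, a replicate block and leaving out samples were tried. Leaving out samples for list genes and ratios of means was added after seeing the data. Where an arm then held few samples, the spread was pooled over the fit. The exact permutation test of 3 against 3 cannot go below 0.1 and was not used. Same-numbered GKO and WT tumours deviated together (r = 0.101, 0.12 and 0.197), a pairing hint from the data alone, as no label says what a number shares. For GKO tumours and GKO non-tumour livers r was 0.124, 0.069 and 0.041, and each GKO tumour deviated most like the liver of its number. With the replicate block 0 of the 10 genes were called between the tumours, as without it, and 0 of all genes in place of 3.

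The 10 genes and all lists were chosen with earlier results of these data known. Genes named from a pathway list were those called, up to 4 by size, or else at most 2 of lowest p.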

Additional observations from a re-analysis of the deposited data

Results flagged for a closer look

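Cd36 was lower in every WT tumour than in every WT non-tumour liver and higher in every GKO tumour than in every GKO non-tumour liver, but by narrow margins. The highest WT tumour was at 49.07 TPM and the lowest WT non-tumour liver at 49.19 TPM, and the highest GKO non-tumour liver was at 28.7 TPM and the lowest GKO tumour at 29.2 TPM. The difference between these effects was 2.15 on the log2 scale (SE 0.62), with an adjusted p of 0.417 in limma's fit of the 12 DEN-treated samples, so it was not called. Opposite directions without overlap were found for 70 of 14106 genes tested (0.496%). The Cd36 difference between effects was 1.71 without WT non-tumour liver 2 and 2.50 without WT tumour 3.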

How the results depend on the processing

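With 3 samples a group, the differences of the 10 genes are known only roughly, and the few reads of Plin4 and Mogat1 in tumours limit their folds. The number of the 10 called in WT tumours against non-tumour livers, 0 as reported, was 2 with a pseudocount of 0.1 (Plin4 and Mogat1), 4 with all 18 samples in 1 fit (Plin4, Plin5, Mogat1 and Cd36) and 1 with voom on recovered reads (Plin5), and 0 to 2 without single samples. In GKO mice it was 2 as reported and 1 to 3 without single samples. With the replicate block, the counts of the 10 genes called were those without it in all 8 comparisons, 2 for GKO tumours against GKO non-tumour livers and 0 for the others. The numbers of the other comparisons pair nothing the labels name. The cause of these changes was not tested.

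Over all genes, the 592 called in WT tumours were 596 with the pseudocount of 0.1, 554 with voom, 297 with no filter (more genes tested), 1649 with all 18 samples, 361 with the replicate block and 185 with WT tumours 1 and 2 averaged. The 1652 called in GKO tumours were 589 with no filter and 2722 with all 18 samples. Without single samples these counts were 163 to 1363 in WT and 229 to 1567 in GKO mice. The 3 called between tumours were 107 with all 18 samples and 147 without WT tumour 3, and 0 with a pseudocount of 0.1, no filter, centring, voom, the replicate block or the averaged tumours. For WT non-tumour against normal livers, 1 became 46, and for the difference of genotype effects, 2 became 13, with all 18 samples.

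Differences near 0 changed sign in some settings. Median centring gave -0.0093 for Plin2 in WT tumours, -0.23 for G0s2 in GKO tumours, 0.12 and -0.0896 for Plin4 between GKO and WT non-tumour and normal livers, and -0.24 for Plin2 and -0.19 for Plin5 between WT non-tumour and normal livers. Voom gave -0.0578, -0.25, 0.18, -0.0469, -0.0663 and -0.0139 for the same 6, and 0.26 for Cidea between normal livers. The pseudocount of 0.1 gave 0.018 and -0.0191 for Plin4 between GKO and WT non-tumour and normal livers. Averaging WT tumours 1 and 2 gave 0.40 for Cidea between tumours and -0.15 in WT tumours against non-tumour livers.

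Without single samples, the values that changed sign ranged as follows. Between GKO and WT tumours, Cidea ranged from -1.08 to 0.64. In WT tumours against non-tumour livers, Plin2 ranged from -0.48 to 0.49 and Cidea from -0.43 to 1.32. In GKO tumours, G0s2 ranged from -0.25 to 0.40 and Cidea from -0.11 to 1.61. Between GKO and WT non-tumour livers, Plin4 ranged from -0.77 to 0.64 and G0s2 from -0.59 to 0.24. Between normal livers the ranges were -0.37 to 0.52 for Plin4, -0.79 to 0.0375 for Mogat1, -0.66 to 0.24 for Cidea, -0.74 to 0.59 for Cideb, -0.66 to 0.26 for Cidec, -0.55 to 0.0859 for Cd36 and -0.59 to 0.58 for G0s2. For WT non-tumour against normal livers they were -0.35 to 0.44 for Plin2, -1.06 to 0.36 for Plin4, -0.0452 to 0.36 for Plin5 and -0.23 to 1.00 for Mogat1. In GKO mice the same comparison gave -0.0725 to 0.21 for Plin5, -0.34 to 0.99 for Cideb, -0.17 to 0.0314 for Cd36 and -0.23 to 0.25 for Pnpla2. For the difference of genotype effects they were -0.24 to 1.17 for Plin4 and -0.44 to 1.30 for Cidea. Over all settings and genes, 1029 values kept their direction and side of the threshold, 13 passed it anew, 5 no longer passed it and 68 changed sign.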
